A study of Mus musculus with 4 samples.

Results

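The genes described are 9 angiogenic growth factor genes of the VEGF, PDGF and apelin families, Vegfa, Vegfb, Vegfc, Vegfd, Pgf, Pdgfa, Pdgfb, Pdgfc and Apln, out of 18217 genes that the array names by a symbol. A probe belonged to a gene when its transcript accession was a RefSeq transcript of that gene, which gave 18 of 41174 probes, 1 to 4 per gene. Vegfd is named Figf in older annotation. The families were chosen with earlier results of these arrays known, among them the difference between DEM and DMSO, so they count as chosen by the measured difference in processed signal. The values of that difference for the 9 genes are therefore given as a description and support nothing further.

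The arrays compare Hepa1c1c7 cells exposed to 100 µM diethyl maleate (DEM) for 6 hours with the same cells exposed to the solvent dimethyl sulfoxide (DMSO) for 6 hours, with 2 RNA samples per group and 1 array per sample. Hepa1c1c7 is an established mouse hepatoma line grown in serum-containing medium, and both groups are this single line. DEM is a thiol-reactive electrophile that depletes glutathione, and the series title names it as an activator of the transcription factor NRF2. The labels do not say that the samples of a group came from separate cultures, so the spread between them may be technical, and the extraction text mentions liver tissue in contrast to the other labels.

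The VEGF ligands VEGF-A, VEGF-B and placental growth factor bind the receptors FLT1 and, for VEGF-A, KDR on endothelial cells, whereas VEGF-C and VEGF-D act mainly through FLT4 and drive growth of lymphatic vessels. PDGF-A, PDGF-B and PDGF-C are secreted dimers that act on PDGFRA and PDGFRB of mesenchymal cells such as pericytes, fibroblasts and hepatic stellate cells. Apelin is a secreted peptide made from a short precursor, and it acts on the G protein-coupled receptor APLNR on endothelial and cardiac cells. In liver, Vegfa is made by hepatocytes and hepatoma cells, and its transcript is known to be raised by hypoxia through HIF factors and by amino acid or endoplasmic reticulum stress through ATF4.

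Between 20744 and 21659 of 41174 probes per array exceeded background clearly, the scanner software's flag for a usable signal (called well above background here), and no spot reached saturation (0 on each array). Albumin and alpha-fetoprotein transcripts and the keratins Krt8 and Krt18 were well above background on all 4 arrays, while the hepatocyte genes Hnf4a, Ttr, Apoa1, Ahsg and Fgb were not so on 2 or more arrays. Of 10 endothelial markers, Stab2 passed that filter and 9 did not. Of 10 stellate, pericyte or fibroblast markers, 6 passed and 0 were called (limma, with Lrat, Rgs5, Cspg4 and Col1a2 not passing), and their summed signal was 65327 to 71538 in DEM and 74187 to 75995 in DMSO. The part of these markers in the results was not tested. Over the 15537 genes tested, limma called 111 higher (0.714%) and 79 lower (0.508%) in DEM at a Benjamini-Hochberg adjusted p under 0.05. The higher side made up 58.4% of these calls. With median scaling, under which the median over all genes shifted to 0.14, it made up 71.3%, and with spike-in scaling 34.6%. Under spike-in scaling limma gave every growth factor gene the same standard error, so those calls do not use the spread of each gene.

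Among the 9 growth factor genes, Vegfd and Vegfa were higher in DEM, Pdgfb and Apln were lower, and Vegfb, Vegfc, Pgf, Pdgfa and Pdgfc were not called. Vegfd was 6.48-fold higher and Vegfa 3.46-fold higher, whereas Pdgfb was 2.54-fold lower and Apln 2.53-fold lower. The count is 2 of 9 higher, where 0.714% of all genes were called higher, and 2 of 9 lower, where 0.508% were called lower. Because the genes were chosen with this comparison known, nothing is read from that contrast of shares. The median log2 change of the 9 genes was −0.10, against −0.01 over all 15537 genes. All 9 genes had a probe well above background on all 4 arrays, so none passed the filter through 1 group alone. These are bulk samples, in which fewer cells making a transcript and less transcript per cell cannot be told apart.

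**Figure D1:**
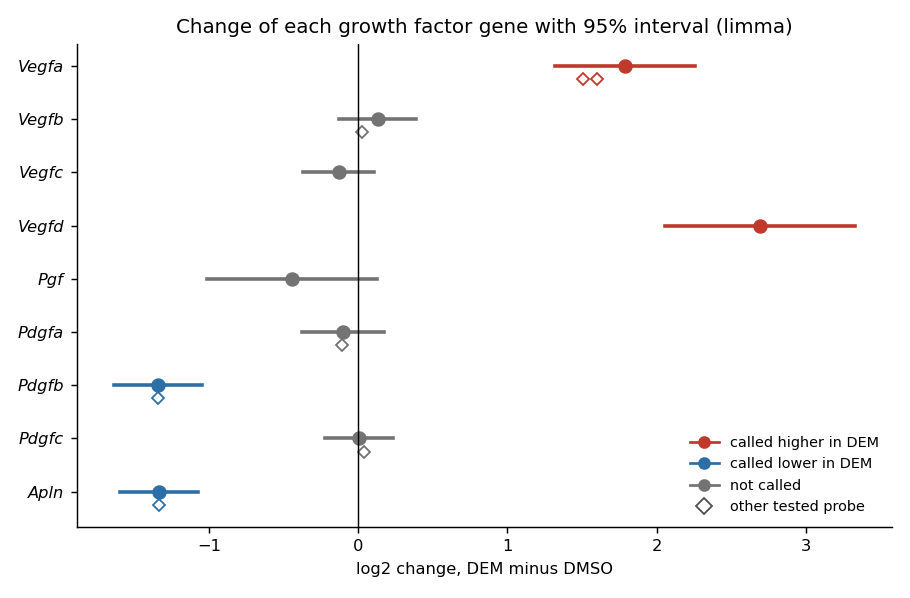
Log2 change, DEM minus DMSO, of the 9 growth factor genes. Circles are the brightest probe of each gene with its limma 95% interval (n = 2 arrays per group) and diamonds are other tested probes of the gene, which lie close to the circle of their own gene.

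Promoter windows from the RefSeq table used here (GRCm38.p6) are shown for Vegfa, Vegfd and Apln, to set the sequences beside the changes that follow. A window of Pdgfb was not analysed here. Each window runs from 250 bases before to 50 bases after an annotated start, 5′ to 3′ on the strand of the gene, and capitals mark matches to any of 7 short motifs searched on both strands. The motifs were the antioxidant response element core TGACNNNGC bound by NRF2, the hypoxia cores ACGTG and GCGTG, the C/EBP-ATF element TGATGNAA, the AP-1 site TGANTCA, 1 form of the NF-kB site, GGGNNTTCC, and the GC box GGGCGG. The windows are Vegfa at chr17:46032328-46032627 on the minus strand, Vegfd at chrX:164373272-164373571 on the plus strand and Apln at chrX:48034804-48035103 on the minus strand.
Vegfa: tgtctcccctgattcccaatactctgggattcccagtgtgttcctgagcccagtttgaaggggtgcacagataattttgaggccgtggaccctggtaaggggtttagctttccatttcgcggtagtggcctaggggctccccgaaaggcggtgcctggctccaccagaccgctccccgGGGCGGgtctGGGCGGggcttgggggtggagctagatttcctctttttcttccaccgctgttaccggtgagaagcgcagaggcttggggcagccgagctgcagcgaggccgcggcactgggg
Vegfd: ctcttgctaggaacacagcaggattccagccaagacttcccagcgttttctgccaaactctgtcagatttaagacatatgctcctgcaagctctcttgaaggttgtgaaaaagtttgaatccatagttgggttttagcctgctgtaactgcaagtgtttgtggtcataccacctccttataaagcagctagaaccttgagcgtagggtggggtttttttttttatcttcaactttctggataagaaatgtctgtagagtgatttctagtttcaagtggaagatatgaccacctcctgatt
Apln: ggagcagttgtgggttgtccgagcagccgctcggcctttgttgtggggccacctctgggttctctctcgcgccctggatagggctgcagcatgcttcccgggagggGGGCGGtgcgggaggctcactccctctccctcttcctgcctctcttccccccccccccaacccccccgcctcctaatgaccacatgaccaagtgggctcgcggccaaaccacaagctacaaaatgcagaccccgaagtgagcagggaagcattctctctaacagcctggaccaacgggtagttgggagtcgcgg

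The Vegfa window held 2 GC boxes and the Apln window 1, and the Vegfd window had no match to any of the 7 motifs. A second Vegfa window, at a start inside the gene, held 1 match to each hypoxia core and 1 GC box. GCGTG also matched in Vegfb, Pgf and Pdgfa, 3 of the 5 genes that were not called, and ACGTG in 0 of these 5. A GC box matched in 4 of these 5. The Vegfd window was also the poorest in G and C, at 42.0% with 2 CpG dinucleotides, against 62.0% and 16 for Vegfa, 64.0% and 15 for Apln, and medians of 53.0% and 7 over 32544 distinct windows. The antioxidant core matched in none of the 3 called genes shown here. It matched in 4 of the 5 genes that were not called, as TGACTGGGC in Vegfc, TGACCGTGC in Pdgfa, TGACAAAGC in Pdgfc and, on the opposite strand, GCGGGGTCA in Pgf. Of all windows, 12.4% held this core, 19.7% held ACGTG, 32.6% held GCGTG and 35.9% held a GC box. These shares are per window and the counts above per gene, with 2 windows each for Vegfa, Pgf and Pdgfa. The Pgf and Pdgfa windows lay at annotated starts other than the start of the gene as a whole. The C/EBP-ATF element (3.91% of all windows), the AP-1 site (7.79%) and the NF-kB form (5.85%) matched in 0 of the 8 genes with a window. A match is a stretch of letters and says nothing of binding, and enhancers outside these windows were not examined.

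**Figure D2:**
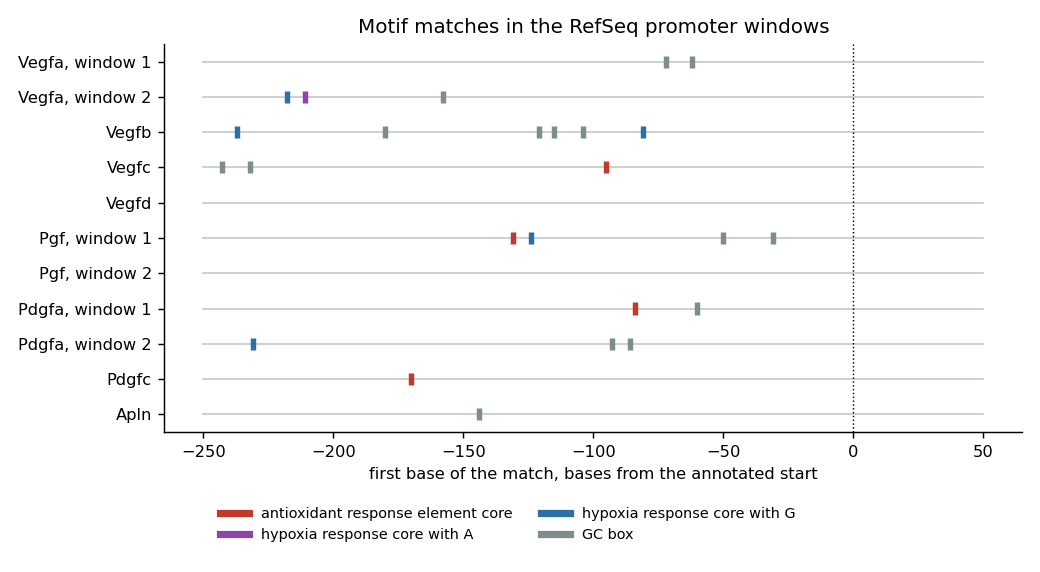
Motif matches in the 11 RefSeq promoter windows of 8 growth factor genes. The x axis is the distance of the first base of a match from the annotated start in bases, and coloured ticks are the matches. The antioxidant core falls in Vegfc, Pgf, Pdgfa and Pdgfc, and the Vegfd window is empty.

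Vegfa encodes the main angiogenic VEGF ligand. Its brightest probe read 2140 and 2786 in the DEM arrays and 666 and 707 in the DMSO arrays (processed signal, mean of its unflagged spots). Both DEM arrays lay above both DMSO arrays, and the DEM arrays were further apart from each other than the DMSO arrays. After scaling, the log2 change was 1.79 ± 0.17 (SE, n = 2 arrays per group), a 3.46-fold higher level, and Vegfa ranked 43 among the 15537 genes by size of rise.

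This Vegfa probe is printed at 10 places on each array, which gives the spread of the measurement itself. Its unflagged spots ran from 2050 to 2210 in DEM replicate 1 and from 2600 to 2930 in DEM replicate 2, against 619 to 725 in DMSO replicate 1 and 634 to 758 in DMSO replicate 2. The coefficient of variation between spots was 2.54% and 3.68% in the DEM arrays and 5.60% and 5.02% in the DMSO arrays. The gap between the DEM arrays was therefore larger than the spread between their spots, and no spot of a DMSO array reached any spot of a DEM array. Spots of 1 array share their RNA sample and are not replicates of the treatment.

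**Figure D3:**
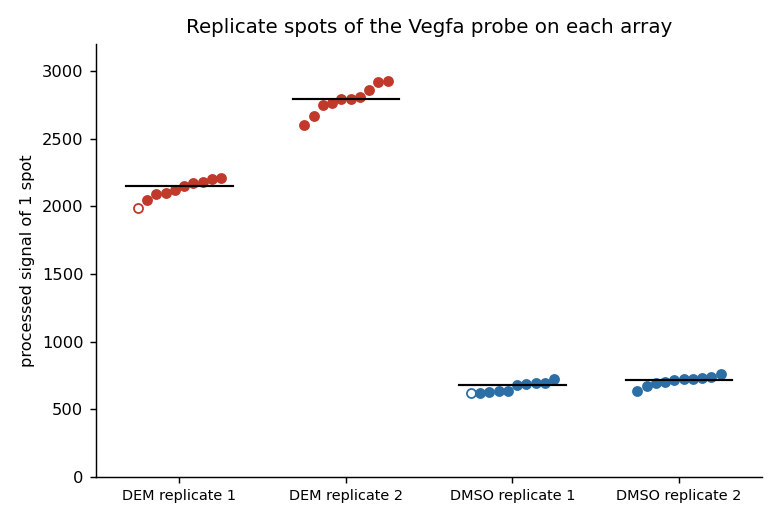
Processed signal of each of the 10 spots of the brightest Vegfa probe on the 4 arrays. Lines are the median of the unflagged spots and open circles are spots with an outlier flag. DEM spots lie at 2050 and above where unflagged, and DMSO spots at 758 and below.

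Vegfa had 3 further probes. The second gave signals of 562 and 660 in DEM against 206 and 210 in DMSO, and the third 383 and 430 in DEM against 130 in each DMSO array. Their log2 changes of 1.51 ± 0.13 and 1.60 ± 0.11 (SE, n = 2 arrays per group) were somewhat smaller than that of the brightest probe, and each was called when every probe was tested on its own, where 0.61% of 21140 probes were called higher. The fourth probe was well above background on DEM replicate 2 only, at 21.4, and read 14.7 in DEM replicate 1 and 2.81 and 2.45 in the DMSO arrays. With the DMSO side set to its detection limit, the DEM mean was 1.35-fold higher (over, per DMSO array, the lowest signal of any probe well above background). DEM replicate 1 was itself not well above background, so this is not a lower bound, and the probe was not tested.

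Vegfd, a ligand for the lymphatic receptor FLT4, was measured by 1 probe. It read 260 and 381 in DEM and 43.9 and 50.7 in DMSO. The groups did not overlap, and DEM replicate 2 was the higher DEM array, as it was for Vegfa. The log2 change was 2.70 ± 0.24 (SE, n = 2 arrays per group), the largest of the 9 genes and rank 22 of 15537. The Vegfd signal was low in DMSO, and after normexp correction, whose offset shrinks the changes of dim probes, its log2 change was 1.66. Vegfa then changed by 1.67, so Vegfd was not the largest of the 9 genes in that setting.

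Vegfb and Vegfc stayed close to their DMSO level. Vegfb, a FLT1 ligand linked to fatty acid uptake in mice, read 7430 and 7850 in DEM and 6760 and 6810 in DMSO. Its log2 change was 0.13 with a 95% interval of −0.13 to 0.39, and its second probe gave 0.02 with overlapping groups. Vegfc, the principal lymphatic growth factor and the closest relative of Vegfd, read 2290 and 2350 in DEM and 2560 and 2380 in DMSO. Its log2 change was −0.13 (interval −0.37 to 0.11). Under median scaling, which moved the median over all genes to 0.14, it was 0.01. The intervals of Vegfb and Vegfc do not reach a 2-fold change in either direction, although they do not show that the levels are equal.

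Pgf, placental growth factor and a FLT1 ligand, was measured by 1 probe with low signals. It read 44.3 and 31.6 in DEM and 57.6 and 42.6 in DMSO. The log2 change was −0.45 with an interval of −1.02 to 0.12, wide enough to hold both a 2-fold lower level and no change. The arrays of each group differed by 0.44 (DEM) and 0.38 (DMSO) on the log2 scale, about as much as the groups did.

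**Figure D4:**
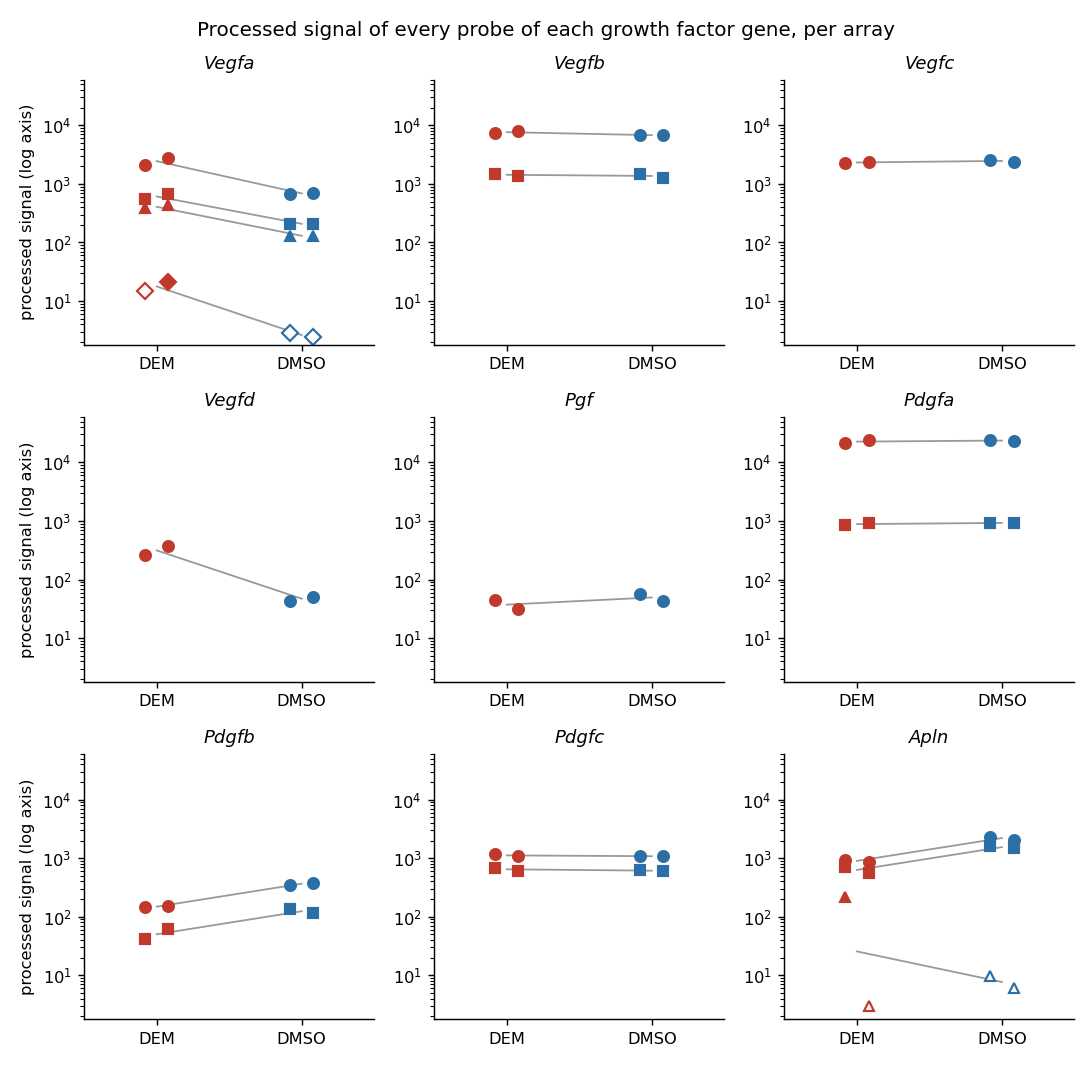
Processed signal (log axis) of every probe of the 9 growth factor genes on each array, DEM left and DMSO right. Marker shapes are different probes of a gene, filled markers are well above background, open ones are not, and grey lines join the geometric means of the groups. Vegfa and Vegfd slope down to DMSO, and Pdgfb and the bright Apln probes slope up. Pgf slopes up less, and Vegfb, Vegfc, Pdgfa and Pdgfc are close to level.

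Among the PDGF ligands, Pdgfb alone was called. Pdgfb encodes the chain that recruits pericytes and activates hepatic stellate cells through PDGFRB. Its brighter probe read 145 and 152 in DEM and 350 and 383 in DMSO, so that each DEM array was below each DMSO array. The log2 change was −1.34 ± 0.11 (SE, n = 2 arrays per group), rank 90 of 15537 by size of fall. Its second probe read 41.2 and 61.3 in DEM and 134 and 115 in DMSO. That probe also gave −1.35 but with a larger SE of 0.23, and it was not called when every probe was tested on its own (0.402% of probes were called lower).

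Pdgfa, the PDGFRA ligand, read 21700 and 23700 in DEM and 24200 and 23100 in DMSO. Although the unscaled signals overlap, the scaled values did not, and the log2 change was −0.10 (interval −0.38 to 0.17). Its second probe, with signals of 843 and 931 in DEM and 937 and 918 in DMSO, gave −0.11. Pdgfc, which is secreted with a CUB domain that must be cut off, read 1160 and 1070 in DEM and 1090 and 1070 in DMSO. It was the 1 gene of the 9 whose scaled groups overlapped, where 50.6% of all genes tested had groups that did not overlap. Its log2 change was 0.00 (interval −0.23 to 0.23). The signs for Pdgfa and Pdgfc turned under some of the scalings tried, with 0.04 for Pdgfa under median scaling and −0.07 for Pdgfc under spike-in scaling. These 2 scalings move all genes alike, and the median over all genes was then 0.14 and −0.08.

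Apln, the apelin precursor gene and a known hypoxia-induced transcript, was lower in DEM. Its brightest probe read 947 and 852 in DEM and 2340 and 2080 in DMSO, and a second probe read 709 and 558 in DEM and 1590 and 1500 in DMSO. In both probes the groups were apart, and both gave a log2 change of −1.34, with SE of 0.10 and 0.13 (n = 2 arrays per group). The first ranked 92 of 15537 by size of fall. The third Apln probe departed from these. It read 217 in DEM replicate 1 and 3.01 in DEM replicate 2, against 9.58 and 6.16 in DMSO. It was well above background on DEM replicate 1 only and was not tested. With DMSO set to the detection limit the DEM mean was 1.95-fold higher, a value that rests on the 1 array. DEM replicate 2 lay below both DMSO arrays, so this value is not a lower bound.

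Apln and Vegfa, both known as hypoxia-induced transcripts, therefore lay on opposite sides of their DMSO level. Pdgfb and Apln had nearly the same change, and no probe of either gene that was well above background on all 4 arrays was higher in DEM. The direction of Vegfa, Vegfd, Pdgfb and Apln was the same in all 16 alternative settings, with ranges of 1.57 to 2.01 for Vegfa, 1.66 to 3.0 for Vegfd, −1.44 to −1.09 for Pdgfb and −1.41 to −1.19 for Apln. In most settings this was fixed in advance. Changing only the filter, the variance model, the block or the source of the same intensities, or testing every probe alone, leaves the log2 change as it was. Leaving out 1 array cannot turn the sign of a gene whose groups do not overlap. Median and spike-in scaling move all genes by 1 common amount, small beside these changes. The calls depended on having both DMSO arrays. Without DMSO replicate 1, limma called 0 genes on the whole array (unadjusted p under 0.05 for 983 on the higher and 1130 on the lower side), and without DMSO replicate 2 also 0 (844 and 1171). Without DEM replicate 2 neither Pdgfb nor Apln was called, and without DEM replicate 1 Pdgfb was not. An exact permutation test of 2 against 2 samples cannot give a two-sided p below 0.333, so no single-gene exact test was used.

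For Vegfa and Vegfd, the genes with the most similar profile were found by the root mean square difference of gene-centred log2 values over the 4 arrays, among 10310 named genes well above background on all of them. With 4 arrays in 2 groups this likeness mostly reflects a similar size of change. The 5 nearest to Vegfa were Slc6a9, a glycine transporter, Arrdc3, an arrestin-domain protein, Vpreb1, Fam13a and Txlnb, with differences of 0.13 to 0.19. Their own log2 changes were 2.01, 1.5, 2.13, 1.90 and 1.60. The 5 nearest to Vegfd were Vpreb1, Srxn1, which repairs oxidised peroxiredoxins, Spata45, Nqo1, a quinone reductase, and Slc6a9, at 0.29 to 0.37. Srxn1 changed by 2.30, Spata45 by 2.33 and Nqo1 by 2.35.

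Genes around these ligands were taken from 7 lists of receptors, other ligands, processing enzymes, inhibitors, regulators, hypoxia-induced genes and kinase signalling. Of 127 listed genes 94 were tested, 30 did not pass the background filter and 3 had no named probe. Limma called 0 higher and 1 lower, which is 1.06% of those tested, against 1.22% of all genes. In several alternative settings the share called in the lists was above that of all genes. The unadjusted p (limma) was under 0.05 for 8 of the 94 on the higher and 11 on the lower side. Over all 15537 genes it was so for 1401 on the higher and 1587 on the lower side. These totals are the background for the counts per list below.

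Of the receptors, Nrp2, Pdgfrb and Pdgfrl were tested and 0 of the 3 were called by limma (0 at an unadjusted p under 0.05, median log2 change −0.10). Kdr, Flt4, Nrp1, Pdgfra and Aplnr were well above background on 0 arrays, and Flt1 on 1. The signals of their probes lay between 2.54 and 13.8. Thus the lymphatic receptor FLT4, the VEGF-A receptor KDR and the apelin receptor had no transcript well above background in either group. Pdgfrb, the receptor of PDGF-B, read 2270 and 2450 in DEM and 1840 and 1960 in DMSO, a log2 change of 0.27 ± 0.11 that was not called (limma adjusted p = 0.289).

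Of 20 other angiogenic ligands, 10 were tested and 0 called by limma (unadjusted p under 0.05 for 1 on the higher and 3 on the lower side), with a median of −0.30. Edn1, the vasoconstrictor endothelin-1, read 148 and 128 in DEM and 201 and 222 in DMSO (−0.66 ± 0.12, limma adjusted p = 0.0905). Pdgfd, the remaining PDGF ligand, and the apelin-like peptide gene Apela were not measured above the filter, the second for want of a named probe. Of 15 processing enzymes 5 were tested and 0 called (unadjusted p under 0.05 for 0 on the higher and 1 on the lower side; median 0.03). Plat, the tissue plasminogen activator, which cleaves PDGF-C, read 808 and 666 in DEM and 1030 and 941 in DMSO (−0.47 ± 0.12, limma adjusted p = 0.150). Of 17 inhibitors 12 were tested and 0 called (unadjusted p under 0.05 for 1 on the higher and 2 on the lower side; median −0.11). Spry1, a Sprouty inhibitor of receptor tyrosine kinase signalling, read 2240 and 2320 in DEM and 4340 and 5170 in DMSO, and its change of −1.10 ± 0.14 fell short of the threshold (limma adjusted p = 0.0552).

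Of 20 regulators of the Vegfa transcript, 19 were tested and 0 called by limma (unadjusted p under 0.05 for 2 on each side), with a median of 0.05. The largest changes were in the Zfp36 family, whose proteins bind AU-rich messenger RNAs, Vegfa among them, and promote their decay. Zfp36 read 307 and 406 in DEM and 146 and 164 in DMSO (1.15 ± 0.19, limma adjusted p = 0.0808). Zfp36l1, named after its value was seen, read 1990 and 2220 in DEM and 4080 and 4530 in DMSO (−1.07 ± 0.13, limma adjusted p = 0.0534). Zfp36l2, also named after its value was seen, read 41.4 and 41.8 in DEM and 24.6 and 21.9 in DMSO (0.80 ± 0.09, limma adjusted p = 0.0529). The 3 relatives thus had changes of different sign, none of them called. Hif1a, the oxygen-regulated HIF subunit, likewise chosen after its value was seen, had a log2 change of 0.22 ± 0.11.

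All 20 hypoxia-induced genes were tested, with 0 higher, 1 lower and 19 not called by limma and a median of 0.07. The unadjusted p was under 0.05 for 3 on the higher and 2 on the lower side. The call was Bhlhe40, a basic helix-loop-helix repressor, which read 805 and 784 in DEM and 1800 and 1780 in DMSO (−1.21 ± 0.08, limma adjusted p = 0.0317). Leaving out any 1 of the 4 arrays ended this call (limma adjusted p from 0.0522 to 0.211) with log2 changes of −1.23 to −1.20. Bhlhe40 lay on the side of Apln and not of Vegfa. Bnip3, a mitophagy receptor named after its value was seen, went the other way with 494 and 551 in DEM and 269 and 243 in DMSO (0.99 ± 0.11, limma adjusted p = 0.0509). Of 26 kinase signalling genes 25 were tested and 0 called by limma (unadjusted p under 0.05 for 1 on each side; median 0.07). Pik3r1, a regulatory subunit of PI 3-kinase, read 102 and 111 in DEM and 227 and 134 in DMSO (−0.75 ± 0.26, limma adjusted p = 0.234), and its other 3 tested probes gave −0.13 to −0.35.

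**Figure D5:**
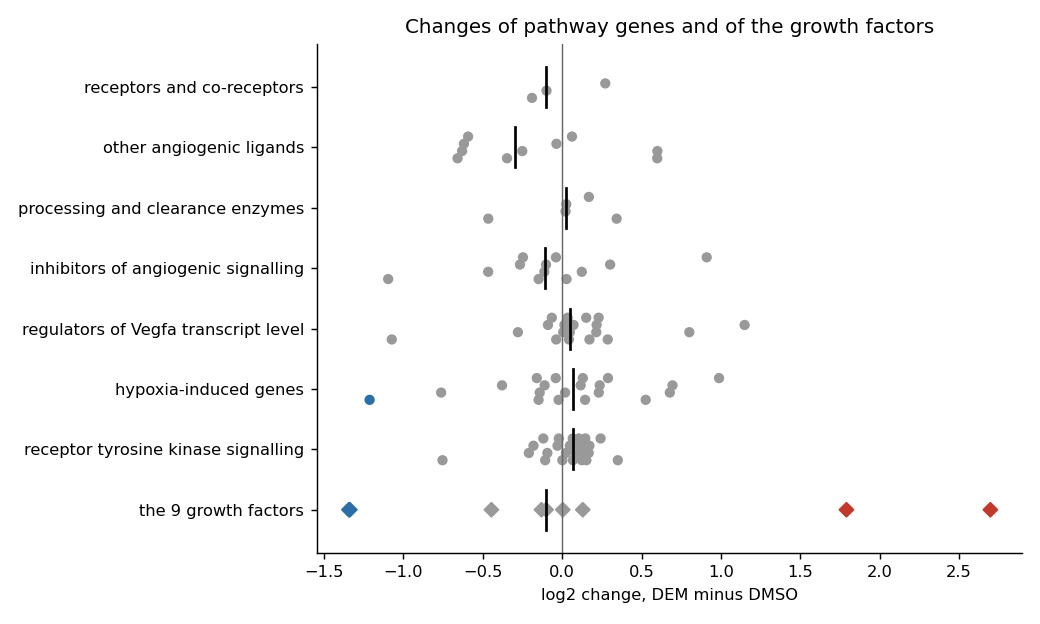
Log2 change, DEM minus DMSO, of each tested gene in the 7 lists (circles) and of the 9 growth factors (diamonds). Black lines are medians, red marks genes called higher in DEM and blue those called lower. The lists centre between −0.30 and 0.07, and their 1 called gene is Bhlhe40.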

How the data were processed

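Each of 4 RNA samples (500 ng, Cy3, 1 colour) was hybridised to 1 Agilent mouse array. Per the file headers, the deposited intensity values come from Agilent Feature Extraction 10.7.3.1 (protocol GE1_107_Sep09, design annotated on mm9), and the authors' value table held the same intensity at all 45018 spots of each array. All arrays lay on 1 slide with 1 scan time. Here each array's log2 processed signals were scaled by their 75th percentile (43379 non-control spots). Outlier-flagged spots were removed before averaging per probe. Probes were named through RefSeq accessions (GRCm38.p6, names alone), and 26690 of 41174 received 1 symbol. Probes well above background on at least 2 of 4 arrays were kept, the brightest per gene, leaving 15537 genes. DEM and DMSO were compared with limma 3.58.1 in R 4.3.3 across all genes (Benjamini-Hochberg, threshold 0.05). The code was also run on data simulated under limma's own variance model. That checks the code and cannot show how well the model suits these arrays. The array number limits precision. Groups and replicate numbers came from sample titles.

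The 9 genes, the lists and the tests were chosen with earlier results of these data known. From each list the up to 3 called genes with the largest change are named, or, in a list without calls, the most changed gene. Any other gene is marked as named after its value was seen. Alternatives were normexp on median signals (offset 50), quantile normalization, median and spike-in scaling, the value table, no or a stricter filter on dim probes, every probe alone, the mean of a gene's probes, intensity-trend variance (plain or robust), a replicate block and omission of each array in turn. Probe sequences and protein sequences were not used here.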

Additional observations from a re-analysis of the deposited data

How the results depend on the processing

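Vegfa, Vegfd, Pdgfb and Apln kept their direction in all 16 alternatives, and the 5 other growth factor genes were called in none of the 16. The direction of the 4 called genes could turn only under normexp, quantile normalization, the mean of probes or a scaling. Median and spike-in scaling move all genes by 1 common amount, which was small beside these changes. Vegfa was 1.93 under median and 1.72 under spike-in scaling, against 1.79 in the main setting. Under quantile normalization the 2 growth factor calls on the higher side became 0, with log2 changes of 1.78 for Vegfa (limma adjusted p = 0.0546) and 2.74 for Vegfd (0.0502), and 59 genes were called higher and 32 lower. With no filter on dim probes 0 genes were called over 32288 (unadjusted p under 0.05 for 1246 on the higher and 1919 on the lower side), so 0 growth factors and 0 pathway genes were. The changes were unaltered at 1.79 for Vegfa, 2.70 for Vegfd, −1.34 for Pdgfb and −1.34 for Apln. More genes enter the adjustment there by construction, and the SE of these 4 genes were also larger, for Vegfa 0.19 against 0.17 in the main setting. Higher and lower calls were 437 and 370 after normexp, 404 and 163 after median scaling, 198 and 374 after spike-in scaling, 230 and 196 with the filter on all 4 arrays, 415 and 311 with an intensity trend, and 492 and 390 with a trend and robust fitting. Called pathway genes, 1 in the report, numbered 8, 7, 5, 7, 9 and 11 in these 6 settings. In the main setting 94 pathway genes were tested. All genes tested were 15537, or 14576 with the filter on all 4 arrays. In each of the 6 settings the share called in the lists was above that of all genes, unlike in the main setting. The lists were chosen with earlier results known, so nothing is read from this. Under spike-in scaling every growth factor gene had the same SE of 0.27, so the calls of that setting do not use the spread of each gene. Leaving out 1 array gave 0 to 69 higher and 0 to 52 lower calls, 0 to 2 growth factors higher, 0 to 1 lower and 0 to 1 pathway genes. The pathway gene called without DEM replicate 1 was Vash2, named after its value was seen, and not Bhlhe40. Vash2 read 13.5 and 56.2 in DEM and 13.9 and 14.6 in DMSO, so its rise rests on DEM replicate 2 alone. DEM replicate 1 was not well above background. With 1 array left out, the log2 change ran from 1.57 to 2.01 for Vegfa, 2.39 to 3.0 for Vegfd, −1.44 to −1.25 for Pdgfb and −1.40 to −1.28 for Apln. The lone array of a group was assumed to vary like the others. With the replicate block, 74 genes were called higher and 69 lower, the 4 growth factor calls stood and 2 pathway genes were called. The labels give shared numbers and no pairing, and same-numbered arrays correlated at 0.14 in their deviations from the group means, over 2 pairs. The causes of these differences were not tested. Signal over background limits Pgf, the DMSO side of Vegfd and the dimmest probes of Vegfa and Apln. No group of 4 or more samples existed in which to look for outliers.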
